A study of Mus musculus with 10 samples.

Results

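A group of 10 genes whose products bring fatty acids from circulating lipid into the cell and activate them was followed in mouse retinal cells sorted by the scavenger receptor CD36. They were chosen by name, as the lines of the deposited count table whose symbol was Lpl, Fabp3, Fabp4, Fabp5, Slc27a1, Slc27a4, Acsl1, Acsl3, Acsl4 or Acsl5. All 10 were found among the 21869 lines of the table that could be used. Of these genes Lpl, lipoprotein lipase, was higher in the CD36-positive cells. The other 9 did not pass the test in either direction, which does not show that they were equal, and the interval of each difference is given with the gene.

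RNA was sequenced from living retinal cells that stained for CD11b and at an intermediate level for CD45, named microglia in the labels (the resident macrophages of the retina). Flow cytometry had divided them by surface CD36. The positive sort gave 5 libraries (1, 2, 3, 4 and 7) and the negative sort 5 more (1, 2, 4, 7 and 8), all titled wild type (WT). The stated protocol gave mice an intravenous injection of NaIO3 (sodium iodate, which damages the retinal pigment epithelium) at 20 mg/kg in phosphate-buffered saline (PBS), or PBS alone, and took the eyes 7 days later. The labels used here give neither the treatment, strain, age and sex behind these 10 libraries nor whether each came from its own animal or from a pool, so no treatment was compared and the spread between libraries may be partly technical.

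As background, most fatty acid in blood travels esterified in lipoprotein triglyceride. Lipoprotein lipase, which is secreted and acts outside the cell, releases it. CD36 and the fatty acid transport proteins of the Slc27a family promote its entry across the plasma membrane. Inside the cell the small fatty acid binding proteins of the Fabp family hold it in solution and carry it between compartments. The long-chain acyl-CoA synthetases of the Acsl family then join it to coenzyme A, the form in which it is burned, stored as triglyceride or built into phospholipid. Macrophages and microglia use this route when they take up lipoproteins and the lipid of dying cells, and Lpl is a well-known gene of microglia with a high lipid load.

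Libraries held 5001692 to 13250984 counts, with 13531 to 15089 genes detected. The least depth was found in CD36-positive libraries 1 and 3. On the second and the third principal components of scaled log2 counts (15.9% and 12.3% of the variance) library 1 and library 3, in that order, were farthest out. The sort gene Cd36 ran from 170 to 255 CPM (counts per 1000000 counts of the library, scaled by the trimmed mean of M-values) in the positive libraries and from 41.7 to 55.2 CPM in the negative ones. Its log2 fold change of positive over negative was 2.12 (SE 0.18, edgeR quasi-likelihood test, adjusted p = 1.45e-06), so its transcript followed the labels. The other sort genes, Itgam for CD11b and Ptprc for CD45, did not pass (log2 fold changes of -0.20 and 0.13). Across 11596 tested genes, 303 were higher in the positive cells and 550 lower at an adjusted p under 0.05. That is 2.61% higher and 4.74% lower, or 7.36% in either direction, and the CPM ranges of the groups did not overlap for 8.4% of genes. Leaving out positive library 3 or negative library 4, 7 or 8 changed the number higher to 196, 132, 182 and 197.

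Against those shares, 1 of the 10 fatty acid genes was called higher, 0 were called lower (edgeR quasi-likelihood test), and 1 had ranges that did not overlap. The only one with an unadjusted p under 0.05 was Lpl too. The median log2 fold change of the 10 was -0.33, where it was 0.02 over all genes tested. Their median size of change without regard to sign was 0.38, against 0.34 over all genes. An estimate below 0 was found for 7 of the 10 and an estimate above 0 for 3, and 8 of the 10 estimates lay within 0.5 log2 units of 0 (80% against 64.83% of all genes tested). All 10 passed the filter on low counts, Fabp4 only through the negative group.

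**Figure D1:**
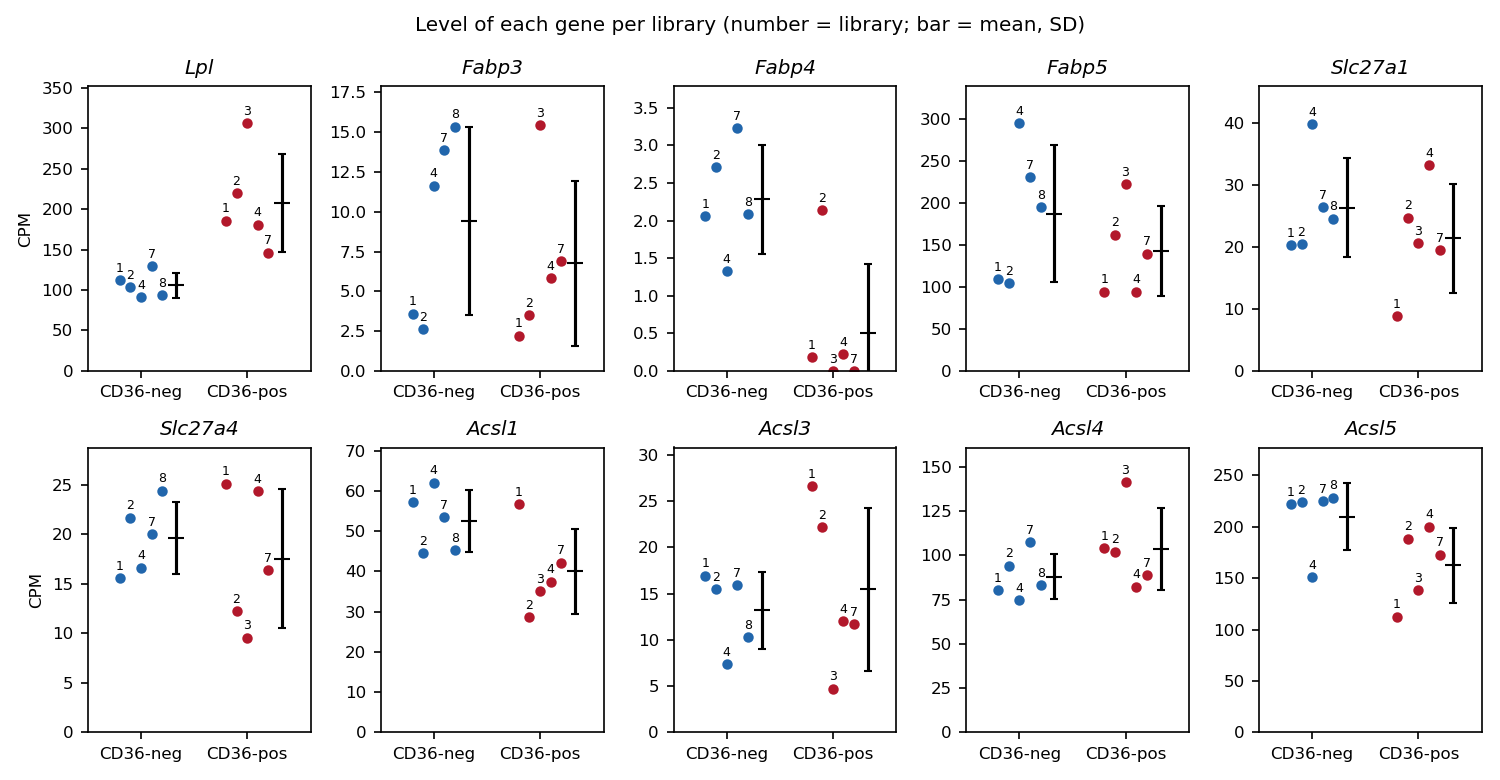
CPM (vertical axis, linear from 0, its own scale in each panel) of the 10 genes in each library, CD36-negative in blue and CD36-positive in red. Numbers name libraries, and the bar gives the mean and SD of 5 libraries (the SD bar of Fabp4 is cut off at 0). Lpl is the panel in which every red point lies above every blue point.

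Lipoprotein lipase was the 1 transcript of these 10 whose levels separated the sorts. Lpl (GRCm38 chr8:68880491-68907448, plus strand, protein coding) stood at 186, 220, 306, 181 and 146 CPM in CD36-positive libraries 1, 2, 3, 4 and 7. It stood at 113, 104, 91.4, 130 and 93.7 CPM in CD36-negative libraries 1, 2, 4, 7 and 8. The lowest positive library, number 7, was above the highest negative library, which also bore the number 7, so the groups did not overlap. The means were 208 ± 61 CPM (SD, n = 5) and 106 ± 16 CPM (SD, n = 5). The log2 fold change was 0.97 (SE 0.20, 95% interval 0.54 to 1.40), a fold of 1.96 with an interval of 1.46 to 2.64 (edgeR quasi-likelihood test, adjusted p = 0.00599). These values rest on 8564 counts in the positive and 5607 in the negative libraries. Lpl kept its call in 19 of 20 other settings of the analysis. The exception took the number in the sample description, used here to name libraries, as a replicate block. There the estimate was the lowest, 0.745, and did not pass (edgeR quasi-likelihood test, adjusted p = 0.0655). Positive library 3, the highest for Lpl, and negative library 8 share their number with no other library. That estimate therefore rests on the 4 shared numbers and leaves these libraries out. Without positive library 3 alone, and with no block, it was 0.79 and passed (edgeR quasi-likelihood test, adjusted p = 0.0156). The labels do not say whether libraries with the same number are paired. In bulk RNA of this kind, more cells with the transcript and more transcript per cell cannot be told apart.

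Several lists of markers of other cells in the gate also differed between the sorts. Homeostatic microglia markers did not separate the groups: 0 of 12 tested passed with edgeR, DESeq2 or limma voom (2 had an unadjusted p under 0.05 with edgeR), and their summed level was 8950 to 19360 CPM in the positive and 8436 to 19730 CPM in the negative libraries. Dendritic cell markers were lower in the positive cells for 11 of 12 tested, with sums of 38.3 to 102 CPM against 760 to 1132 CPM over the whole list. Monocyte markers were lower for 8 of 12 (468 to 976 CPM against 1331 to 2287 CPM). Those with the highest mean levels did not pass: Ccr2 (411 and 408 CPM in positive and negative libraries, log2 fold change 0.01) and Fn1 (241 and 333 CPM, -0.47). Nor did Vcan (log2 fold change 0.38) and F10 (-2.81). Neutrophil markers were lower for 7 of 8 (84.1 to 194 CPM against 307 to 849 CPM). The positive sum was made mostly by Csf3r, the tested marker that did not pass. Csf3r was at 119 and 173 CPM in positive and negative libraries (log2 fold change -0.53, edgeR adjusted p = 0.302). Retnlg was at 0 in every positive library and had 4123 counts in the negative ones, while Ly6g and Ngp, also at 0 in the positive, had 13 and 9. T and NK cell markers were lower for 6 of 7 (16.3 to 81 CPM against 178 to 651 CPM), with Prf1 at 0 in every positive library. Of the markers called lower in these 4 lists, 9 dendritic cell, 5 monocyte, 7 neutrophil and 5 T and NK cell markers reached the level of the count filter in fewer than 5 positive libraries. Those entered the test through the negative group, where they were high, so their calls are no independent support. The summed levels are the measure to read. Border and vessel macrophage markers went both ways, with 3 of 8 higher, 1 lower and a median log2 fold change of -0.76. The 1 called lower also entered the test only through the negative group, so its call is no independent support. The sum of this list (990 to 1197 CPM against 365 to 957 CPM) was made mostly by Ms4a7. Without Ms4a7 the ranges were 226 to 365 CPM and 178 to 592 CPM. The part of these cells in the fold of Lpl, or of any gene described here, was not tested.

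Markers of non-immune cells were read in the same way. Markers of endothelial cells, on whose surface the lipase acts in blood vessels, and of pericytes were lower for 2 of 3 tested (7.95 to 12.9 CPM against 26.2 to 32.4 CPM). Of these 2 markers, 1 entered the test only through the negative group, so its call is no independent support. Most of these sums came from the 3 tested, Pecam1, Flt1 and Kdr. Their means were 3.23, 1.21 and 3.84 CPM in positive and 11.9, 8.80 and 7.39 CPM in negative libraries. The untested ones were near 0 in both sorts: Cldn5 had 0 and 12 counts in positive and negative libraries, Tie1 0 and 0, Tek 6 and 2, and Rgs5 24 and 3. Adipocytes are another rich source of Lpl and Fabp4. Their markers Adipoq, Lep and Retn had 1, 3 and 3 counts in all positive libraries together and 5, 8 and 2 in all negative ones. Cidec was at 0 throughout, and Adipor2, which many tissues express, was the adipocyte marker with enough counts to be tested and did not pass. Photoreceptor markers were lower for 2 of 11 and for 7 of 11 at an unadjusted p under 0.05, with a median log2 fold change of -1.60 (125 to 983 CPM against 408 to 2496 CPM). Of 6 Müller glia and astrocyte markers Kcnj10 was higher and Vim lower. The sum of that list (299 to 414 CPM against 574 to 1005 CPM) was made mostly by Vim, and without it the ranges were 116 to 186 CPM and 92.3 to 169 CPM. Of 2 B cell and 2 retinal pigment epithelium markers tested, 0 passed with any of these tools and 0 had an unadjusted p under 0.05 (23.7 to 40.5 against 11.3 to 35.4 CPM, and 21 to 43.1 against 16.7 to 48.7 CPM).

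Among the binding proteins, Fabp5 carried nearly all of the transcript. Fabp5, the epidermal type found in many macrophages (chr3:10012548-10016607, plus strand), was at 94.4, 162, 222, 94.3 and 139 CPM in positive libraries 1, 2, 3, 4 and 7. In negative libraries 1, 2, 4, 7 and 8 it was at 109, 104, 295, 231 and 195 CPM. The groups overlapped widely, since negative libraries 1 and 2 lay with the lower positive libraries. The means were 142 ± 53 CPM and 187 ± 81 CPM (SD, n = 5 each), and the log2 fold change of -0.39 had an interval of -1.02 to 0.24 (SE 0.30, adjusted p = 0.492).

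Fabp4, the adipocyte and macrophage type and a textbook target of the nuclear receptor PPAR-gamma, was scarce. It lies on the opposite strand 187.48 kb from Fabp5 (chr3:10204088-10208576). It had 1, 19, 0, 2 and 0 counts in positive libraries 1, 2, 3, 4 and 7, and 24, 27, 13, 31 and 25 counts in negative libraries 1, 2, 4, 7 and 8. Every negative library thus held some Fabp4 reads. Of the 22 counts in positive cells, 19 came from library 2, whose 2.14 CPM lay within the negative range of 1.33 to 3.23 CPM. A count of 0 in positive libraries 3 and 7 allows up to 0.43 and 0.23 CPM, counting error only. The means were 0.51 ± 0.92 CPM and 2.28 ± 0.72 CPM (SD, n = 5 each). The log2 fold change was -2.11 (SE 1.06, interval -4.35 to 0.13, adjusted p = 0.268), so the test did not call it. Without positive library 2 the fitted estimate of -4.42 passed (edgeR, adjusted p = 0.0323), but it rests on 3 counts in 4 positive libraries. Its size is not fixed by so few. Fabp4 passed the count filter only through the negative group, and the library left out was the highest positive one, so this pass is no independent support. Without library 2 the plain ratio of negative to positive CPM was 25.6, with an exact binomial counting interval of 8.55 to 126. That interval covers counting error only and leaves out the spread between libraries, which was beyond counting noise. The dendritic cell, monocyte, T and NK cell and endothelial marker sums given above also stood lower in the positive libraries, and their part in the Fabp4 values was not tested.

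Fabp3, the heart type (chr4:130308595-130315463, plus strand), varied within both groups. Its CPM was 2.22, 3.49, 15.4, 5.85 and 6.89 in positive libraries 1, 2, 3, 4 and 7, and 3.60, 2.61, 11.6, 13.9 and 15.4 in negative libraries 1, 2, 4, 7 and 8. Positive library 3 and negative libraries 4, 7 and 8 were high, so the sort did not order the values. The log2 fold change of -0.47 had a wide interval, -1.72 to 0.78 (SE 0.59, adjusted p = 0.711). Its deposited counts were not whole in 8 of 10 libraries, the annotation holds a processed pseudogene copy, Fabp3-ps1, and the ends of 2 genes on the other strand overlap it by 80 and 81 bases. Reads shared with such copies or neighbours cannot be separated in this table, so its level is uncertain. A processed pseudogene of Fabp5, Fabp5l2, is annotated as well, although the counts of Fabp5 were whole in every library.

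Per kilobase of the principal transcript, Fabp5 made up 94.6% ± 2.0 of the binding protein transcripts in the positive and 93.2% ± 2.0 in the negative libraries (SD, n = 5 each). Fabp3 made up 5.08% and 5.25%, and Fabp4 0.37% and 1.52%. The log2 ratio of Fabp4 to Fabp5 within a library averaged -7.40 ± 1.10 in positive and -6.00 ± 0.88 in negative libraries (SD, n = 5 each, CPM with a pseudocount of 0.5). The difference of -1.41 did not pass (two-sided exact permutation test over 252 regroupings, p = 0.0794, adjusted p = 0.159 over the 6 ratios examined). Its size depends on the pseudocount, as Fabp4 was near 0. With 0.1 CPM it was -2.63 and with 2 CPM -0.47, and neither passed (exact permutation test, adjusted p = 0.127 and 0.635). The ratio of Fabp3 to Fabp5 differed by -0.07 (exact permutation p = 0.873, adjusted p = 0.873).

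The transport proteins were expressed at modest levels in both sorts. Slc27a1, also called FATP1 (chr8:71568882-71587302, plus strand), ran at 8.87, 24.8, 20.7, 33.3 and 19.5 CPM in positive libraries 1, 2, 3, 4 and 7 and at 20.4, 20.5, 39.9, 26.5 and 24.6 CPM in negative libraries 1, 2, 4, 7 and 8. Positive library 1, the shallowest, was the lowest of all, and the other 4 positive libraries, from 19.5 to 33.3 CPM, lay largely within the negative range. Its log2 fold change was -0.29 (interval -0.97 to 0.38, adjusted p = 0.655).

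Slc27a4, or FATP4, which has acyl-CoA synthetase activity of its own (chr2:29802634-29817522, plus strand), ran at 25.1, 12.3, 9.57, 24.4 and 16.4 CPM in positive libraries 1, 2, 3, 4 and 7. It ran at 15.6, 21.7, 16.6, 20.0 and 24.4 CPM in the negative libraries in their order. Here positive library 1 was the highest rather than the lowest. Positive over negative gave a log2 fold change of -0.17 (interval -0.82 to 0.49, adjusted p = 0.815). The log2 ratio of Slc27a1 to Slc27a4 was 0.26 ± 1.02 in positive and 0.39 ± 0.52 in negative libraries (SD, n = 5 each), a difference of -0.13 (exact permutation p = 0.857, adjusted p = 0.873).

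**Figure D2:**
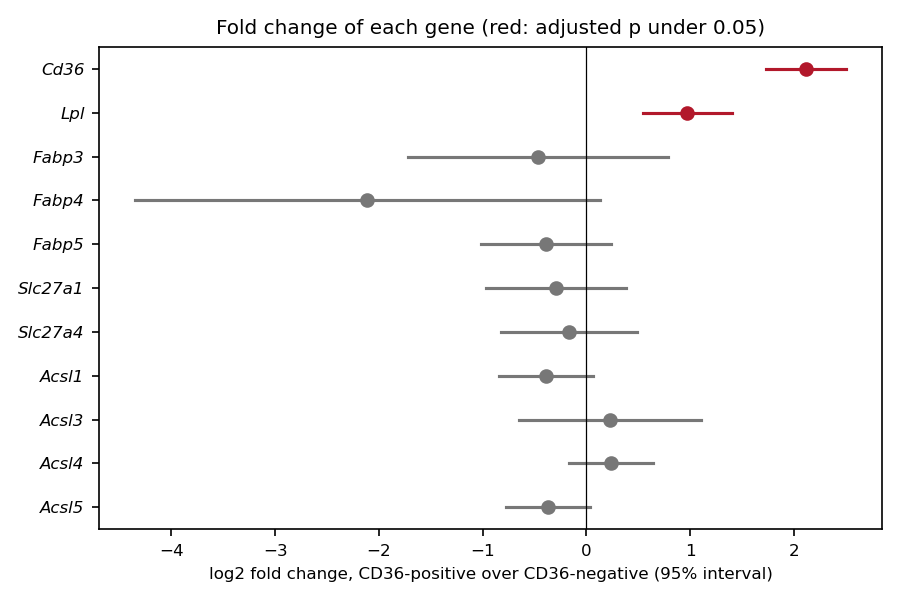
Log2 fold change of CD36-positive over CD36-negative (horizontal axis) for the sort gene Cd36 and the 10 fatty acid genes, with 95% intervals over 5 and 5 libraries. Red marks an adjusted p under 0.05 by edgeR: Cd36 at 2.12 and Lpl at 0.97, while the intervals of the other 9 genes include 0.

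The acyl-CoA synthetases made up the activating step, and none of the 4 passed (0 called, and 0 with an unadjusted p under 0.05, edgeR quasi-likelihood test). Acsl5, an isoform of mitochondria and endoplasmic reticulum (chr19:55251938-55297720, plus strand), was at 112, 188, 138, 200 and 173 CPM in positive libraries 1, 2, 3, 4 and 7. In negative libraries 1, 2, 4, 7 and 8 it was at 222, 224, 151, 225 and 228 CPM. All 5 positive values lay below 4 of the negative ones, and the exception was negative library 4. The means were 162 ± 36 CPM and 210 ± 33 CPM (SD, n = 5 each), and the log2 fold change was -0.37 (SE 0.19, interval -0.77 to 0.04, adjusted p = 0.287). Zdhhc6, on the opposite strand, overlaps Acsl5 over 26430 bases of the gene span, introns included. It ran from 30.9 to 83 CPM in positive and from 74.2 to 99.8 CPM in negative libraries. Without a stated strand in the counting, reads of overlapping parts cannot be told apart. The overlap of exons alone was not measured, and the counts of Acsl5 were whole in every library.

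Acsl4 prefers arachidonic and other long polyunsaturated fatty acids and is known for making the phospholipids that are oxidised in ferroptosis. Acsl4 (chrX:142317993-142390535, minus strand) was at 104, 102, 142, 82.3 and 88.8 CPM in positive libraries 1, 2, 3, 4 and 7 and at 80.5, 94.2, 74.9, 107 and 83.2 CPM in negative libraries 1, 2, 4, 7 and 8. Only positive library 3 lay above the negative range. The means were 104 ± 23 CPM and 88.0 ± 12.9 CPM (SD, n = 5 each), with a log2 fold change of 0.24 (SE 0.19, interval -0.17 to 0.64, adjusted p = 0.518).

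Acsl1 serves both triglyceride synthesis and oxidation and is induced in inflammatory macrophages. Acsl1 (chr8:46471037-46536051, plus strand) was at 56.7, 28.6, 35.1, 37.4 and 42.2 CPM in positive libraries 1, 2, 3, 4 and 7. In negative libraries 1, 2, 4, 7 and 8 it was at 57.3, 44.5, 62.0, 53.5 and 45.2 CPM. In all, 4 of the 5 positive libraries lay below the lowest negative one, and library 1 lay near the top of the negative range. Its log2 fold change was -0.39 (SE 0.22, interval -0.85 to 0.06, adjusted p = 0.314).

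Acsl3, an isoform of lipid droplets and endoplasmic reticulum (chr1:78657825-78707743, plus strand), ran at 26.6, 22.2, 4.71, 12 and 11.7 CPM in positive libraries 1, 2, 3, 4 and 7. It ran at 17.0, 15.5, 7.35, 15.9 and 10.3 CPM in negative libraries 1, 2, 4, 7 and 8. The positive libraries spread further than the negative ones on both sides. The log2 fold change was 0.23 (SE 0.42, interval -0.65 to 1.11, adjusted p = 0.811), and it was -0.07 without positive library 1. Counts of Acsl3 were not whole in 6 of 10 libraries, and Utp14b on the same strand overlaps it over 13475 bases of the gene span, introns included.

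**Figure D3:**
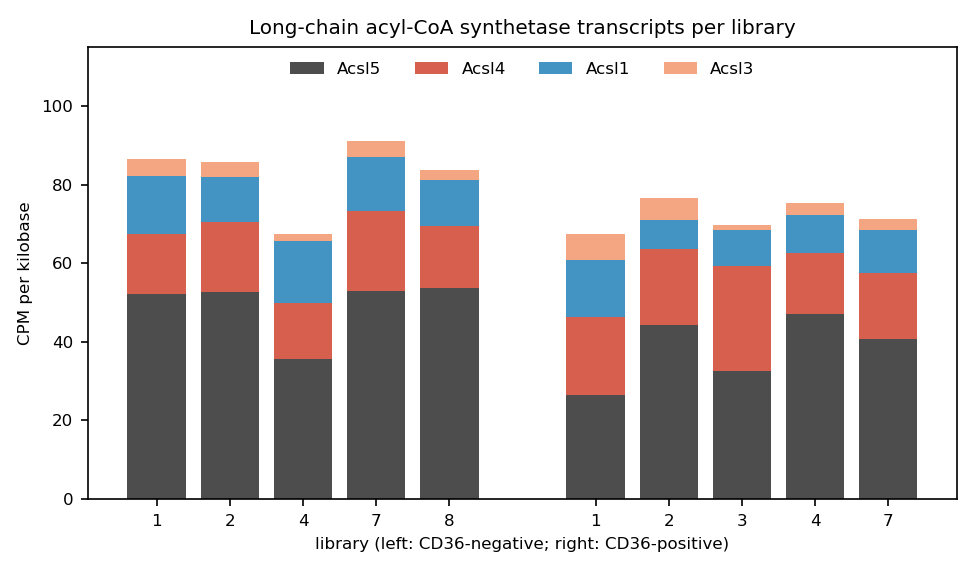
Transcripts of the 4 long-chain acyl-CoA synthetases in each library, as CPM per kilobase of the principal transcript (vertical axis, linear from 0) stacked by gene, CD36-negative libraries on the left and CD36-positive on the right. Acsl5 is the tallest layer in every library and is on average 59.4% of the stack in negative and 52.7% in positive libraries.

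Per kilobase, Acsl5 was the main synthetase transcript of both sorts. It made up 52.7% ± 9.5 of the 4 genes in positive and 59.4% ± 4.3 in negative libraries (SD, n = 5 each). Acsl4 followed with 27.4% ± 6.9 and 20.1% ± 1.9, Acsl1 with 14.4% ± 4.5 and 16.6% ± 4.2, and Acsl3 with 5.44% ± 3.23 and 3.96% ± 0.97. The ratio of Acsl5 to Acsl4 within a library, which does not depend on how libraries are scaled, stood at 0.11, 0.88, -0.03, 1.27 and 0.96 on the log2 scale in positive libraries 1, 2, 3, 4 and 7. It stood at 1.46, 1.24, 1.01, 1.06 and 1.45 in negative libraries 1, 2, 4, 7 and 8.

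Positive libraries 1 and 3, the shallowest, held the lowest Acsl5 to Acsl4 ratios, and library 4 lay among the negative values. The mean difference was -0.61 (two-sided exact permutation test, p = 0.0476), which did not pass over the 6 ratios (adjusted p = 0.159). Left out in turn, positive library 4 gave -0.77 with an adjusted p of 0.0476 (exact permutation test). That library held the highest positive ratio, so this pass is no independent support. Each other library left out gave an adjusted p from 0.143 to 0.302 by the same test. The ratio of Acsl1 to Acsl4 averaged -1.37 ± 0.50 in positive and -0.74 ± 0.35 in negative libraries (SD, n = 5 each). Its difference of -0.63 did not pass either (exact permutation p = 0.0635, adjusted p = 0.159). The ratio of Acsl3 to Acsl4 differed by -0.15 (exact permutation p = 0.857, adjusted p = 0.873).

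Ordered by CPM per kilobase, Fabp5 led in both sorts, with 144 ± 54 in positive and 189 ± 83 in negative libraries (SD, n = 5 each). In the positive cells Lpl came next (50.5 ± 14.8), then Acsl5 (38.3 ± 8.6) and Acsl4 (19.7 ± 4.4). The ranges of Lpl and Acsl5 overlapped there, as did those of Acsl5 and Acsl4. In the negative cells Acsl5 came next (49.4 ± 7.8), then Lpl (25.8 ± 3.8) and Acsl4 (16.7 ± 2.4), and none of these neighbours overlapped.

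Below them the order was the same in both sorts: Acsl1 (10.3 and 13.5 CPM per kilobase in positive and negative cells), Fabp3 (8.23 and 11.4), Slc27a1 (7.66 and 9.43), Slc27a4 (4.33 and 4.85), Acsl3 (3.91 and 3.34) and Fabp4 (0.57 and 2.55). In the positive cells only Acsl4 and Acsl1 were separated among the neighbours from Acsl4 down, and in the negative cells only Slc27a1 and Slc27a4. By mean CPM over all libraries Acsl5, Fabp5 and Lpl stood at the 92.7, 91.4 and 90.9 percentiles of the tested genes, and Fabp4 at the 1.47 percentile.

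Around these genes, 92 others of the same pathway were listed, of which 91 were in the table and 66 had enough counts to be tested. Of the 66, 3 fell and 0 rose (edgeR), the sort gene Cd36 not counted. The share that fell, 4.55%, is near the 4.74% over all genes. At an unadjusted p under 0.05 there were 11 lower and 4 higher (22.7% of the 66 against 21.3% of all genes), and DESeq2 and limma voom called 5 and 4 lower and 0 higher. Without negative library 1, 2 or 8 the number that fell was 1. Their median log2 fold change was -0.23, against 0.02 over all genes tested, and the ranges of the groups did not overlap for 6 of the 66 (9.09% against 8.4%). Those 6 were Acbd3 and Fads1, higher in every positive library, and Acot2, Aacs, Mboat7 and Por, lower in every positive library. The lists were drawn up with earlier results of these data known, so these counts describe the lists and do not support a direction independently.

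Of 13 lipase partners and lipoprotein receptors read here 8 were tested, and 0 were called by edgeR, DESeq2 or limma voom or had an unadjusted p under 0.05. Lmf1, which matures the lipase in the endoplasmic reticulum, was at 25.7 and 26.6 CPM (log2 fold change -0.05, adjusted p = 0.948). Apoc2, its activating apolipoprotein, was at 118 ± 39 and 83.6 ± 29.0 CPM (SD, n = 5 each; 0.49, interval -0.05 to 1.04, adjusted p = 0.29). Angptl4, an inhibitor, was at 2.53 and 2.88 CPM (-0.18, adjusted p = 0.912). Gpihbp1, which anchors the lipase to capillary endothelium, was at 0 counts in all 10 libraries. These 4 were named after their values were seen, for their role.

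The other uptake genes held 6 tested of 11, and beside Cd36 none passed (1 had an unadjusted p under 0.05, and 0 passed with DESeq2 or limma voom). The other binding proteins had 7 of 13 tested and 0 called by edgeR, DESeq2 or limma voom (2 had an unadjusted p under 0.05 with edgeR). They include Dbi, the acyl-CoA binding protein, at 170 ± 9 and 128 ± 28 CPM in positive and negative libraries (SD, n = 5 each; log2 fold change 0.42, adjusted p = 0.172). Acbd3, another protein with an acyl-CoA binding domain, was at 52.5 ± 11.3 and 34.1 ± 4.7 CPM (SD, n = 5 each; 0.62, adjusted p = 0.0826). The other acyl-CoA synthetases had 6 of 12 tested and 1 called. This was Aacs, which activates the ketone body acetoacetate rather than a long-chain acid, at 10.2 ± 5.8 against 27.6 ± 5.0 CPM (SD, n = 5 each; -1.43, SE 0.38, edgeR adjusted p = 0.0295). Every positive library (2.96 to 17.3 CPM) lay below every negative library (22.0 to 33.6 CPM). The adjusted p of Aacs was 0.0664 without positive library 3, and 0.0615, 0.0656 and 0.0772 without negative library 1, 2 or 8.

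All 8 acyl-CoA thioesterases, which undo the activation, were tested and 0 were called by edgeR, though 2 had an unadjusted p under 0.05. The nearest was Acot7, at 16.0 ± 8.2 and 36.2 ± 12.1 CPM (SD, n = 5 each; log2 fold change -1.17, edgeR adjusted p = 0.0527), which DESeq2 and limma voom called (adjusted p = 0.0163 and 0.0485). Of the enzymes that use acyl-CoA 18 of 21 were tested and 1 was called. Mboat7, which places arachidonic acid into phosphatidylinositol, was at 47.1 ± 15.4 in positive and 85.5 ± 17.0 CPM in negative libraries (SD, n = 5 each; -0.86, SE 0.25, edgeR adjusted p = 0.0479). The ranges of 20.9 to 59.0 CPM and 67.5 to 107 CPM did not overlap. Leaving out positive library 2, 3 or 7, or any of the negative libraries, ended the call (adjusted p from 0.0506 to 0.126). Cpt1a, which passes acyl groups to mitochondria, and Dgat1, which makes triglyceride, did not pass (log2 fold changes of -0.30 and 0.08). Nor did Fads1, a fatty acid desaturase, at 84.8 ± 9.6 and 59.5 ± 11.1 CPM (SD, n = 5 each; 0.51, edgeR adjusted p = 0.117).

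Of 8 tested PPAR and RXR receptors and coactivators 0 were called by edgeR, and 2 had an unadjusted p under 0.05. Pparg, the receptor known to drive Fabp4 and Lpl, was at 0.74, 3.49, 5.14, 1.35 and 3.48 CPM in positive libraries 1, 2, 3, 4 and 7 and at 9.07, 2.61, 13.5, 9.17 and 10.2 CPM in negative libraries 1, 2, 4, 7 and 8. Negative library 2 lay among the positive values, and the log2 fold change of -1.64 (SE 0.60) did not pass (edgeR adjusted p = 0.118). With DESeq2 it passed (adjusted p = 0.0443), and with limma voom it did not (0.138). Pparg was named after its values were seen, for its role.

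Of the 6 genes of defence against lipid peroxidation, all tested, 1 was called. Por, the cytochrome P450 reductase that donates electrons and is known to promote, not to prevent, peroxidation, was at 46.1 ± 11.9 against 87.7 ± 16.7 CPM (SD, n = 5 each). Its log2 fold change was -0.92 (SE 0.22, edgeR adjusted p = 0.0129), and the highest positive library (59.5 CPM) lay below the lowest negative one (76.9 CPM). Gpx4, the peroxidase that reduces lipid peroxides, did not pass (260 ± 52 and 321 ± 61 CPM, SD, n = 5 each; log2 fold change -0.31, adjusted p = 0.37). Dendritic cell, monocyte, neutrophil and T and NK cell marker sums were lower in the same positive libraries as Aacs, Mboat7 and Por, and their part in these 3 values was not tested.

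**Figure D4:**
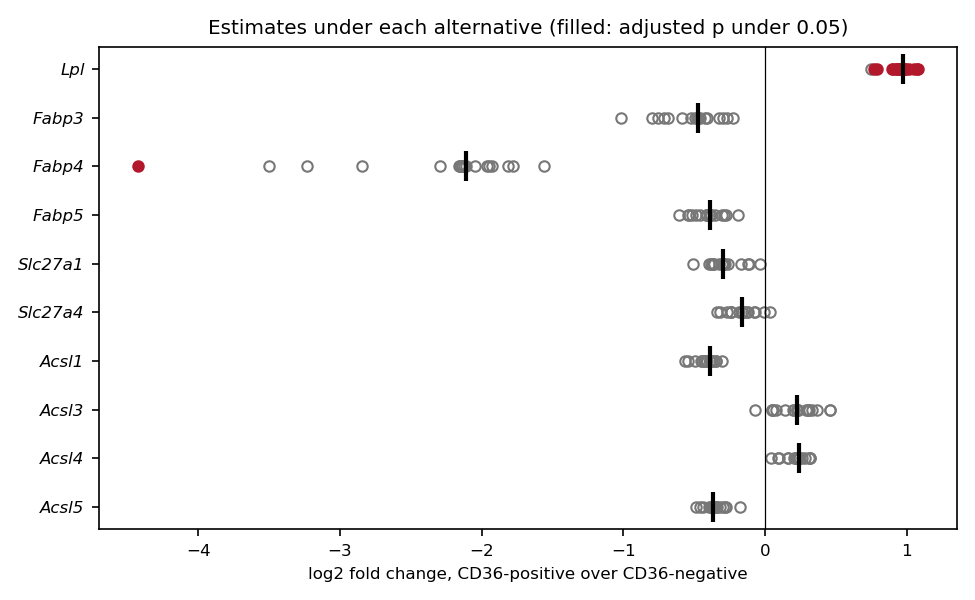
Log2 fold change of each of the 10 genes (horizontal axis) under up to 20 other settings of the analysis (circles) and as reported (black bar), filled red where the adjusted p was under 0.05. Lpl keeps a positive estimate in all 20, from 0.75 upward, and passes in 19. The setting in which it does not pass takes the description number as a replicate block. Fabp4 passes in 1 of 19, and the other 8 genes in none.

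Across the 20 other settings at the same threshold, Lpl kept its sign in all and its call in 19, all but the description number block. Fabp4 kept a negative estimate in the 19 settings in which it was tested and was called in 1 of them. Fabp3, Fabp5, Slc27a1, Acsl1, Acsl4 and Acsl5 kept their sign in every setting that tested them and were called in none. The estimate of Slc27a4 ran from -0.34 to 0.04 and that of Acsl3 from -0.07 to 0.46, so no direction can be given for those 2 genes.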

How the data were processed

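Expected counts, deposited as 1 column per library without normalization, were 91.9% whole numbers. Named without roles in the submitters' processing notes are build mm10, StringTie 1.3.1, HISAT2 2.1.0, Bowtie2 2.2.8 and fastp 0.18.0. The counting program and its strand setting are not given in the sources used here. Of 22008 lines, 8 damaged and 131 repeated ones were dropped. No line of the 10 genes was affected.

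Expected counts were rounded and tested with edgeR 4.0.16 in R 4.3.3 (filterByExpr with a minimum count of 10, TMM scaling, glmQLFit and glmQLFTest, group as the only term). Adjustment was Benjamini-Hochberg over 11596 genes at 0.05. CPM is the count over the TMM-scaled library total. Transcript lengths and coordinates come from GENCODE vM21 (GRCm38, the same assembly as mm10). Intervals are 95%. A floor is 3 counts in a library. Ratios used an exact permutation test, whose smallest p is 0.00794.

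The genes, pathway lists and marker lists were chosen with earlier results of these data known. Named were the 10 genes, the sort genes, and up to 3 genes past the threshold per pathway list. Other pathway genes that did not pass and the marker genes named were chosen after their values were seen. Replicate pairs differed beyond counting noise (chi-square per degree of freedom 22.1 to 108.9). The p-values set the difference between groups against the spread between these libraries. Alternatives were other scaling and filters, replicate numbers as a block, each library left out, DESeq2 1.42.0, limma voom 3.58.1, a detected-genes covariate, a threshold of 0.01 and other pseudocounts. Of the pathway lists, 1 gene is not reported here. Gpat3 and the single-cell and spatial data are not analysed here.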

Additional observations from a re-analysis of the deposited data

Results flagged for a closer look

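Of 32 sets of 5 libraries examined for a library apart from the rest (each gene in each group, and each ratio), 2 were picked out, where chance picks about 1 in 20. The measure was the gap of the highest or lowest library to its neighbour over the whole range, against a critical value of 0.71. Fabp4 in CD36-positive library 2 stood at 2.14 CPM, while the other 4 positive libraries ran from 0 to 0.22 CPM. Acsl5 in CD36-negative library 4 stood at 151.0 CPM, while the other 4 negative libraries ran from 222 to 228 CPM.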

How the results depend on the processing

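With the description number as a replicate block, the log2 fold change of Lpl was 0.745 (adjusted p = 0.0655), so 0 of the 10 genes were called higher, and 184 genes in all were called higher in place of 303. Positive library 3 and negative library 8 have no partner by that number, so the estimates of that fit rest on 4 shared numbers. With the title number as a block Lpl was 0.93 (adjusted p = 0.0118). Pairs of libraries with the same number deviated together with correlations of 0.029 to 0.133 (description) and -0.021 to 0.133 (title). By description 4 of 8 libraries, and by title 3 of 10, correlated best with their own number. These values do not settle whether libraries with the same number are paired, and the labels do not say. Under the description block Aacs, Mboat7 and Por had adjusted p of 0.116, 0.0827 and 0.0861. Genes called higher numbered 533 with the DESeq2 Wald test, 188 without positive libraries 1 and 3, 90 at a threshold of 0.01 (330 lower in place of 550), and 132 to 380 with 1 library left out (196, 132, 182 and 197 without positive library 3 or negative library 4, 7 or 8). With 1 library left out, Lpl ran from 0.79 to 1.07 and kept its call, the genes called lower among the 10 ran from 0 to 1, Fabp4 from -4.423 to -1.778 and the ratio of Acsl5 to Acsl4 from -0.765 to -0.437. Other pathway genes called lower, 3 as reported, numbered 1 without negative library 1, 2 or 8, 5 without a filter or with DESeq2, and 0 at 0.01. Mboat7 also lost its call without positive libraries 1 and 3 (adjusted p = 0.0794) and with the detected-genes covariate (0.0643). The cause of these moves was not tested. Fabp3 and Fabp4 were not tested under the stricter filter (10 CPM in 5 libraries). The principal transcript is also the longest for all 10 genes, so that alternative changed nothing. Depth limits Fabp4, at 0 to 31 counts per library.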

Other observations

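Among the lipid genes below the count filter, reads were unevenly spread in both directions. Acsbg1, a long-chain acyl-CoA synthetase of the bubblegum family, had 98 counts spread over all 5 negative libraries and 0 in all 5 positive ones. Scd1, the stearoyl-CoA desaturase, had 128 counts over 5 negative libraries and 15 over 3 positive ones. Mfsd2a, a transporter of lysophosphatidylcholine that carries docosahexaenoic acid, had 46 counts over 4 negative libraries and 0 in the positive ones. Cav1, caveolin, went the other way with 142 counts over 3 positive libraries and 28 over 4 negative ones, as did Ppara, the nuclear receptor PPAR-alpha, with 36 over 4 and 3 over 2. These genes were picked after their values were seen, and no test was made of them.

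Fabp3 and Fabp5 ran together across the 10 libraries on log2 CPM. Pearson's r was 0.82 (permutation p = 0.00731) and Spearman's rho 0.72 (permutation p = 0.0238), and r was 0.76 over 8 libraries without the 2 farthest from the median. Fabp3 and Acsl3 ran in opposite directions, with r of -0.77 (permutation p = 0.00804), rho of -0.79 (permutation p = 0.00879), and r of -0.63 over 8 libraries. Neither passed over the 28 pairs examined among 8 genes (adjusted p of 0.113 for both values of r, and 0.333 and 0.246 for rho). The groups of 5 are too small for a value within each, and Fabp3 and Acsl3 are the 2 genes of the 10 with counts that were not whole.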
